A study of Mus musculus with 2 samples.

Results

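The HOX genes encode homeodomain transcription factors that give cells their position along the body axis. In the RNA that an antibody against FLAG pulled from embryonic testis with FLAG-tagged Nanos2, some stood more than 10-fold above the starting RNA and others well below it, Hoxd4 by more than 10-fold. Members were defined by name, as every probe whose gene symbol is Hox, a cluster letter from a to d and a number. They were chosen with the values of FLAG IP against input already known, so those values are given here as a description and no member is given a p-value. The rule found 48 probes of 38 genes, out of 41174 probes on the array. The RefSeq gene table (assembly GRCm38.p6) lists 39 such genes, and Hoxc11 had no matching probe name. Of the 38 genes, 29 passed the filter on dim probes, which keeps a probe once both replicates of the input, or both of the FLAG IP, are marked as well above background. All 29 passed in the input, so the filter kept no gene for its FLAG IP signal alone. Only 15 of them were also well above background on both FLAG IP arrays. The others, among them Hoxa10, Hoxb9 and Hoxd4, passed through the input alone. Genes dim in the input, such as Hoxc13 and Hoxd13, were dropped and are missing from the medians and counts below.

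Both groups came from male gonads of the mouse strain MCH at embryonic day 14.5. All gonads carried a transgene in which an enhancer of Nanos2 drives Nanos2 with a 3xFLAG tag, followed by the Nanos2 3′UTR. The FLAG IP group held RNA recovered with Anti-FLAG M2-Agarose and the input group was the same kind of RNA with no antibody step. Each group had 2 one-colour Agilent arrays, described in the series as biological duplicates. A precipitate from gonads without the transgene was not analysed here.

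Vertebrate HOX genes lie in 4 clusters, on mouse chromosomes 6 (Hoxa), 11 (Hoxb), 15 (Hoxc) and 2 (Hoxd). Within a cluster, genes with low paralogue numbers tend to be active early and toward the head, and genes with high numbers later and toward the tail. Genes with the same number in different clusters are paralogues and often act in overlapping ways. In the urogenital ridge the posterior genes are known for patterning the ducts and the outer genitalia, and Hoxa10 for testis descent. Known HOX partners are the TALE homeodomain proteins of the Pbx, Meis and Pknox families, and Polycomb and trithorax complexes keep the clusters silent or active. Nanos2 itself is an RNA-binding protein of male germ cells.

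The clusters also encode microRNAs of the miR-10 and miR-196 families, which are shown because they sit among the genes reported here and some of their known target transcripts are HOX transcripts. The sequences are from RefSeq (GRCm38.p6), 5′ to 3′, with the seed, bases 2 to 8, in capitals. The miR-10 pair shares one seed and the miR-196 pair another.
mmu-miR-10a-5p: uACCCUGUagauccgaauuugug
mmu-miR-10b-5p: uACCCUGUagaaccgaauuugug
mmu-miR-196a-5p: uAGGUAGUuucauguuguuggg
mmu-miR-196b-5p: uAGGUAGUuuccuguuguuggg

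The gene of miR-10a lies at chr11:96317186-96317208 on the plus strand, between Hoxb5 and Hoxb4 and within the span of Hoxb3. That of miR-10b lies at chr2:74726074-74726096 on the plus strand, within the spans of Hoxd3 and Hoxd4. Hoxa9 and Hoxa10 flank miR-196b, at chr6:52230129-52230150 on the minus strand. The sequence of miR-196a is encoded at 2 sites, chr11:96265187-96265208 between Hoxb13 and Hoxb9 and at chr15:102973365-102973386 between Hoxc10 and Hoxc9, both on the plus strand. Mature miRNAs were not analysed here. Among textbook miR-196 targets, the log2 difference between FLAG IP and input was 1.67 ± 0.17 for Hoxa7, -0.92 ± 0.16 for Hoxd8 and -0.94 ± 0.93 for Hoxc8 (SE from limma, n = 2 arrays per group), and Hoxb8 was too dim to measure. Hoxc8 was not well above background on either FLAG IP array, so its difference has no settled sign.

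One precipitate array was far dimmer than the rest. Its 75th percentile of processed signal was 55.7 intensity units (FLAG IP replicate 1), whereas FLAG IP replicate 2 reached 608 and the input pair 1026 and 1038. Values below are scaled signals, meaning multiples of the array's own 75th percentile. The lowest scaled signal well above background was 0.147 on FLAG IP replicate 1, against 0.0160 for replicate 2 and 0.0143 and 0.00933 for the input. Of the 29 HOX genes that passed, 13 lay below 0.147 on FLAG IP replicate 1, where a low value therefore has little meaning. The median SD between replicates of these 29 genes was 0.11 (log2) for the input and 0.53 for the FLAG IP. With 4 arrays in all, precision is limited by their number.

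**Figure D1:**
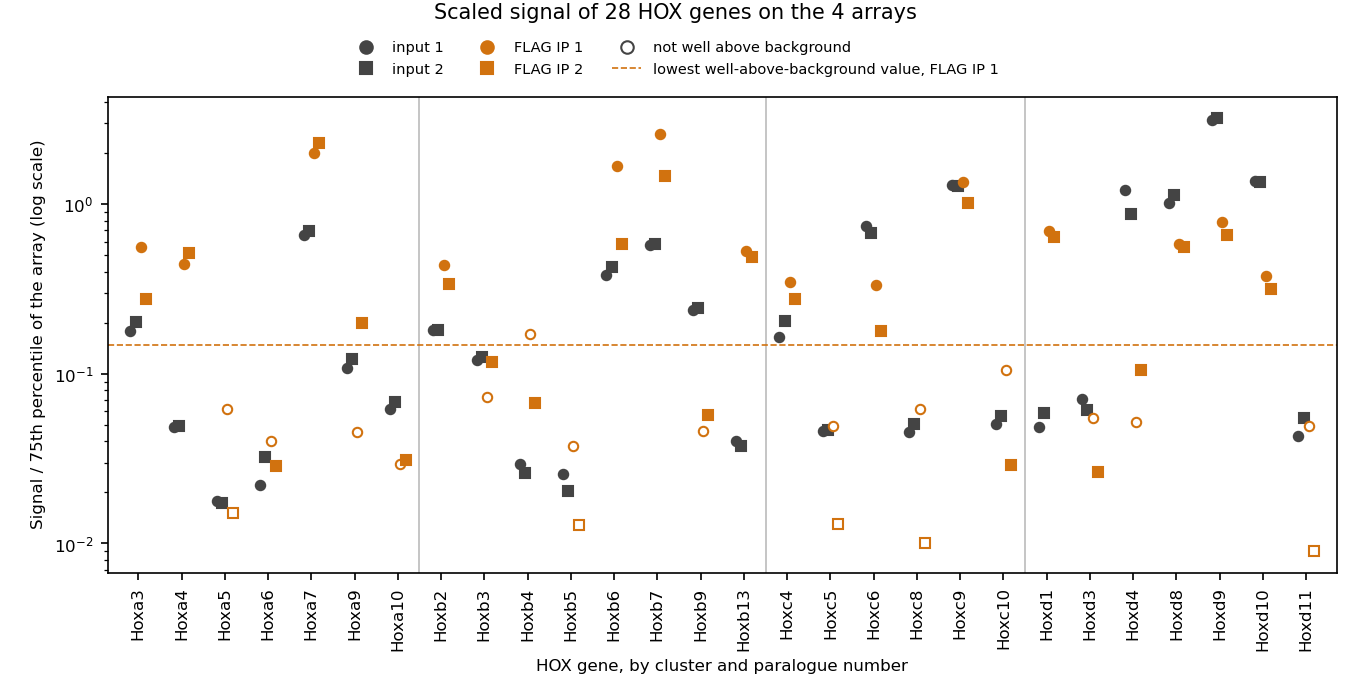
Scaled signal (multiple of the array's 75th percentile, log axis) of 28 HOX genes that passed the filter, by cluster and paralogue number, with a point for each array (grey, input; orange, FLAG IP; circles, replicate 1; squares, replicate 2). Open symbols were not well above background, and the dashed line marks 0.147, the lowest signal well above background on FLAG IP replicate 1. FLAG IP points of Hoxa4, Hoxb13 and Hoxd1 lie far above the input and those of Hoxd4, Hoxd9 and Hoxd10 far below.

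HOX genes went both ways. In limma, 9 of the 29 were called higher in the FLAG IP (31.0%, beside 28.0% of the 15266 genes tested) and 7 lower (24.1%, beside 25.4%). The median log2 difference was -0.06, against 0.07 over all genes tested. Both FLAG IP arrays lay above both input arrays in 11 HOX genes, beside 42.0% of all genes, and below them in 9, beside 38.2%. Nothing is read from these shares, because the contrast was known when the genes were picked. The HOX median moved with single arrays. It was -0.03 without input replicate 1 and -0.15 without input replicate 2, with all genes at 0.07 in both. Without FLAG IP replicate 1 it was -0.21 (all genes -0.003), and without FLAG IP replicate 2 it was 0.60 (all genes 0.16). Counts from these fits are not compared, because the lone array of a group takes its spread from the other group. With the slide as a block, 4 HOX genes were called higher and 4 lower, beside 1431 and 1545 of all 15266 genes. Input replicate 1 was alone on its slide, so that fit in effect left it out.

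**Figure D2:**
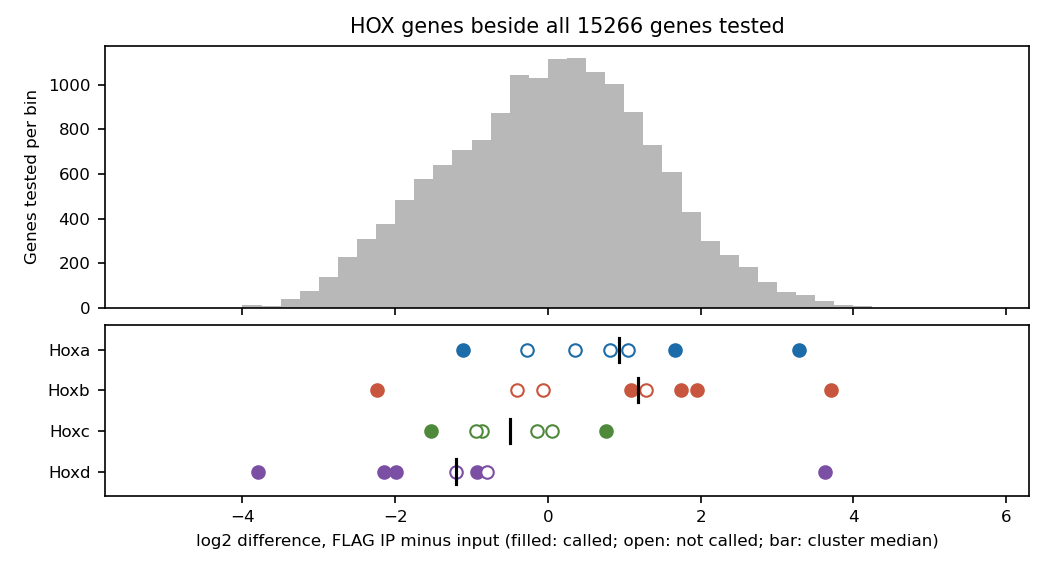
Above, the number of genes per 0.25-wide bin of log2 difference (FLAG IP minus input) for the 15266 genes tested. Below, 28 HOX genes as points by cluster (filled, called in limma; open, not called), with a black bar at the median of all genes of the cluster that passed, which is 0.93 in Hoxa, 1.18 in Hoxb, -0.50 in Hoxc and -1.21 in Hoxd.

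Of the 29 genes, 15 were well above background on all 4 arrays, and of these 8 were called higher, 4 lower and 3 neither. In a fit limited to genes that met this condition, 4109 of 11463 were called higher and 3191 lower. The condition asks for FLAG IP signal, so it favours genes that are higher there. A further 9 genes were well above background on FLAG IP replicate 2 only, with 1 called higher and 3 lower. The last 5, Hoxa5, Hoxb5, Hoxc5, Hoxc8 and Hoxd11, reached it on neither FLAG IP array, and none of them was called. Their differences of 0.81 ± 0.73, -0.06 ± 0.58, -0.86 ± 0.69, -0.94 ± 0.93 and -1.21 ± 0.88 had SEs of similar size or, for Hoxb5, far larger. A bound from the detection limit of both FLAG IP arrays gave a fold above 1 only for Hoxd11, at least 1.01-fold lower in the FLAG IP. On FLAG IP replicate 2 alone, a comparison added after the data were seen, Hoxd11 stood at least 3.06-fold below the input mean, Hoxc8 at least 3.02-fold, Hoxc5 at least 2.88-fold, Hoxb5 at least 1.43-fold and Hoxa5 at least 1.10-fold.

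In the Hoxa cluster, 3 of the 8 genes that passed were called higher and 1 lower, beside 28.0% and 25.4% of all genes. Hoxa4, known for its activity in male germ cells of the adult testis, gave scaled signals of 0.0485 and 0.0494 for the input and 0.444 and 0.519 in the FLAG IP, a difference of 3.29 ± 0.17 (9.80-fold). Hoxa7, a gene of trunk patterning, gave 0.655 and 0.696 against 2.01 and 2.29, a difference of 1.67 ± 0.17 (3.18-fold). The groups did not overlap in either gene.

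The 1 gene called lower lies toward the posterior end of the cluster. Hoxa10, which patterns the uterus and guides testis descent, had 0.0621 and 0.0683 for the input and 0.0296 and 0.0309 in the FLAG IP, a difference of -1.11 ± 0.16. Only FLAG IP replicate 2 was well above background for Hoxa10, and the limit of 0.147 on FLAG IP replicate 1 lies above both input values. After normexp background correction the Hoxa10 difference was 1.21, with all genes at a median of 0.38. Hoxa9, a gene of trunk and blood progenitors, gave 0.108 and 0.122 before precipitation and 0.200 on FLAG IP replicate 2. Its 0.0455 on FLAG IP replicate 1 was not well above background there and has no order against the input. Hoxa6 stood at 0.35 ± 0.30 and Hoxa3, a gene of pharyngeal arch patterning, at 1.04 ± 0.39, and neither was called. A dimmer probe of Hoxa3 was called higher when every probe was fitted on its own.

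In the Hoxb cluster, 4 of 8 genes were called higher and 1 lower, beside 28.0% and 25.4% of all genes. Hoxb13, the most posterior gene of the cluster and known from the prostate and tail, had scaled signals of 0.0403 and 0.0377 for the input and 0.528 and 0.490 in the FLAG IP. It was 13.1-fold higher in the FLAG IP (3.71 ± 0.16), with all 4 arrays well above background. Hoxb7, a gene of the trunk, gave 0.574 and 0.579 against 2.58 and 1.46 (1.75 ± 0.33). Hoxb4, known from blood stem cells, gave 0.0295 and 0.0261 against 0.172 and 0.0673 (1.95 ± 0.50), with only FLAG IP replicate 2 well above background. The Hoxb4 call was lost in 6 of 12 alternatives, and its difference was 1.28 without FLAG IP replicate 1 and 2.63 without FLAG IP replicate 2. Hoxb2, a hindbrain gene, was called higher too, at 1.08 ± 0.20.

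Hoxb9, which patterns the rib cage with its paralogues, went the other way, from 0.239 and 0.243 in the input to 0.0461 and 0.0571 in the FLAG IP. This is a difference of -2.23 ± 0.19, or 4.70-fold lower, with FLAG IP replicate 2 alone well above background. After normexp background correction the Hoxb9 difference was -0.25 and was not called. Hoxb3, another hindbrain gene, gave 0.121 and 0.126 against 0.0734 and 0.118. The first FLAG IP value was not well above background, on an array whose limit of 0.147 lies above both input values. The difference of -0.41 ± 0.28 was not called. Hoxb13 and Hoxb9, neighbours in this cluster among the genes measured, thus differed from the input in opposite directions.

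The Hoxc cluster held the smallest differences. Of 6 genes that passed, 1 was called higher and 1 lower, beside 28.0% and 25.4% of all genes. Hoxc4 gave 0.165 and 0.204 for the input and 0.350 and 0.277 in the FLAG IP (0.76 ± 0.22), and it was called in 4 of the 13 alternatives run. Hoxc6, a gene of the thoracic region, gave 0.742 and 0.680 against 0.334 and 0.180 (-1.54 ± 0.35). Hoxc9, a thoracic gene as well, overlapped between the groups, at 1.29 on both input arrays and 1.35 and 1.01 in the FLAG IP (-0.14 ± 0.21). Hoxc10 stood at 0.05 ± 0.67, with 0.0504 and 0.0566 for the input and 0.0292 on FLAG IP replicate 2. Its 0.105 on FLAG IP replicate 1 was not well above background there and has no order against the input. The cluster median of -0.50 turned to 0.23 without FLAG IP replicate 2 and to 1.11 after normexp background correction.

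In the Hoxd cluster, 4 of 7 genes were called lower and 1 higher, beside 25.4% and 28.0% of all genes. Hoxd4, whose span, like that of Hoxd3, holds miR-10b, had scaled signals of 1.21 and 0.869 for the input and 0.0517 and 0.106 in the FLAG IP. Its difference of -3.79 ± 0.43 (13.8-fold lower) was the most negative of the 29, and only FLAG IP replicate 2 was well above background. After normexp background correction the Hoxd4 difference was -1.87 and was not called. Hoxd9, a gene of limb and lower trunk patterning, gave 3.14 and 3.21 against 0.788 and 0.657 (-2.14 ± 0.18, 4.41-fold lower). Hoxd10, its neighbour with a similar role, gave 1.37 and 1.36 against 0.376 and 0.316 (-1.98 ± 0.18, 3.96-fold lower). For Hoxd9 and Hoxd10 all 4 arrays were well above background and the groups did not overlap.

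Hoxd8 was called lower as well, with 1.02 and 1.14 in the input against 0.580 and 0.556 in the FLAG IP. Hoxd3 stood at -0.79 ± 0.41 and was not called. Hoxd1, at the anterior end of the cluster, was the exception, with 0.0483 and 0.0591 for the input and 0.690 and 0.638 in the FLAG IP (3.63 ± 0.19, 12.4-fold higher). Adjacent members can share sequence on the array: in the RefSeq table the spans of Hoxd3 and Hoxd4, Hoxd10 and Hoxd11, Hoxb3 and Hoxb4, and Hoxa3 with Hoxa4, Hoxa5 and Hoxa6 overlap. Which of the overlapping transcripts a probe of these genes reads was not tested. Calls were also lost in 4 alternatives each for Hoxa10, Hoxb2, Hoxb7 and Hoxd8, in 5 for Hoxc6, in 2 for Hoxa7 and in 1 for Hoxd10. The alternatives include fits with an array left out, and the slide block in effect repeats the fit without input replicate 1.

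**Figure D3:**
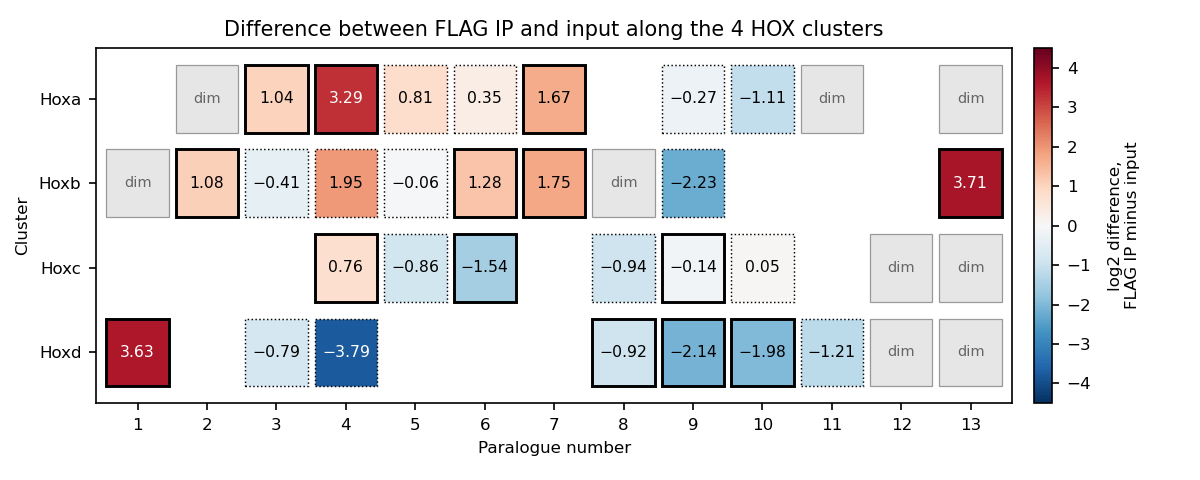
Log2 difference (FLAG IP minus input) of 28 HOX genes by cluster (rows) and paralogue number (columns), in red where the FLAG IP is higher and blue where it is lower. A thick border marks genes well above background on all 4 arrays, a dotted border those that were not, and grey boxes the 9 genes that did not pass the filter. Blue boxes fill most of paralogues 9 to 11, where the median is -1.16 (0.38 after normexp background correction).

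Read across the clusters, some groups of paralogues shared a direction and others did not. In group 4 the difference ran from 3.29 in Hoxa4 over 1.95 in Hoxb4 and 0.76 in Hoxc4 to -3.79 in Hoxd4, all 4 of them called. In group 7, Hoxa7 and Hoxb7 had close values of 1.67 and 1.75. In group 9 all 4 differences were negative, with 2 genes called lower and 2 overlapping between FLAG IP and input. In group 6, Hoxc6 stood at -1.54 ± 0.35 and Hoxb6 at 1.28 ± 0.56. Hoxb6 was not called, and its other probe read -0.89.

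Paralogues 1 to 3 had a median difference of 1.06 over 6 genes of 8 on the array. The median was 0.56 over 14 of 15 for paralogues 4 to 8 and -1.11 over 9 of 15 for paralogues 9 to 13. The genes missing from each group were those too dim to pass the filter. On 11 of their 12 probes the difference was positive, though FLAG IP replicate 1 was not well above background on any. These medians and the correlations below leave those genes out, so the filter has a part in them. Among the 8 genes of groups 9 to 11, 0 were called higher and 4 lower in limma, beside 28.0% and 25.4% of all genes. The counts were the same at an unadjusted p under 0.05. After normexp background correction they were 0 and 1, beside 1272 and 1398 of all 15266 genes. Of the 4 lower ones, Hoxa10 and Hoxb9 were well above background on FLAG IP replicate 2 but not on replicate 1. Hoxb13 was the only gene past group 11 that passed the filter. The median of the 8 genes of groups 9 to 11 was -1.58 without FLAG IP replicate 1 and -1.24 without FLAG IP replicate 2. Spearman's rho between paralogue number and difference was -0.41 across the 29 genes, and -0.81 across 8 genes in Hoxa, 0.26 across 8 in Hoxb, -0.03 across 6 in Hoxc and -0.50 across 7 in Hoxd. These are descriptions across genes, which share the same 4 arrays and are not independent replicates. With normexp background correction the median of paralogues 9 to 13 was 1.02, and with quantile normalization that of paralogues 4 to 8 was -0.20.

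The remaining 9 genes were too dim to pass: Hoxa2, Hoxa11, Hoxa13, Hoxb1, Hoxb8, Hoxc12, Hoxc13, Hoxd12 and Hoxd13. Their 12 probes had scaled signals of 0.00200 to 0.0162 in the input. On 11 of the 12 probes FLAG IP replicate 1 read higher than replicate 2, with ranges of 0.0374 to 0.170 and 0.00335 to 0.115, and replicate 1 was not well above background on any of them. Hoxc13, known from hair and nails, was not well above background in the input (0.00831 and 0.0119) and reached it on 1 FLAG IP array (0.170 and 0.115), namely replicate 2. That array alone stood at least 8.78-fold above the input, a comparison added after the data were seen. Hoxd13, known from digits and genitalia, likewise reached it on FLAG IP replicate 2 alone, and its 2 probes there stood at least 1.95-fold and 9.24-fold above the input. Together with Hoxb13, these are the group 13 genes with a signal well above background on a FLAG IP array, while neither probe of Hoxa13 reached it on any array.

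For 10 HOX genes there were 2 probes, and for 4 of these, Hoxa3, Hoxb6, Hoxb9 and Hoxd9, both passed the filter. The Hoxd9 probes gave -2.14 and -2.26, with SEs of 0.18. The second Hoxa4 probe, at 2.95 beside 3.29, did not pass the filter, as it was not marked well above background on 1 array of each group. For Hoxb9 the second probe gave -3.11 ± 0.51 beside -2.23, and since it was not well above background on either FLAG IP array it stands as at least 4.09-fold lower. The Hoxa3 probes both lay above the input but differed in size, at 3.07 ± 0.33 and 1.04 ± 0.40 in a fit of every probe on its own. Only the first, dimmer one was called higher there, so the call of Hoxa3 depends on the probe. The Hoxb6 probes went in opposite directions. The brighter one read 0.384 and 0.427 for the input and 1.67 and 0.581 in the FLAG IP (1.28 ± 0.57), and the other 0.138 and 0.0959 against 0.0743 and 0.0523 (-0.89 ± 0.30), so the direction of Hoxb6 depends on the probe.

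**Figure D4:**
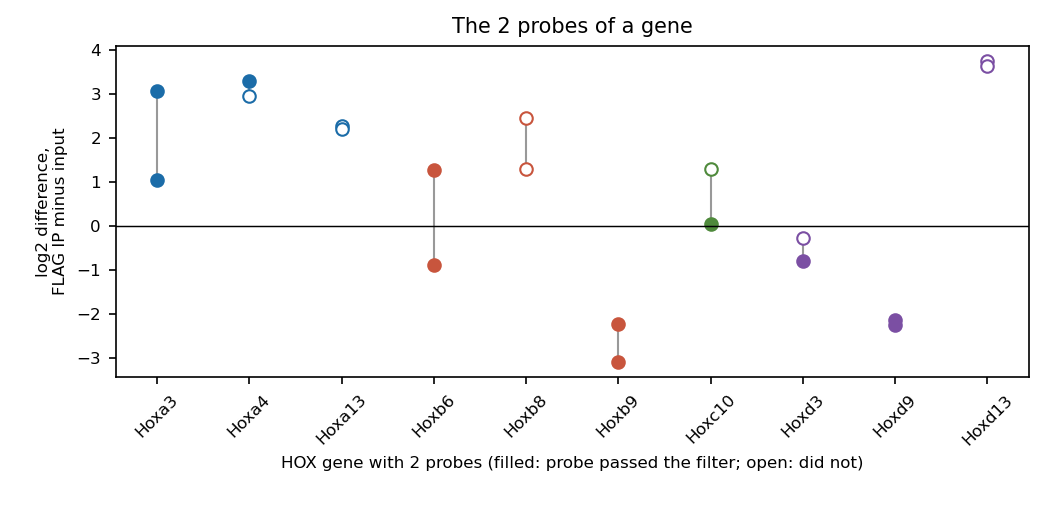
Log2 difference (FLAG IP minus input) of both probes of each HOX gene that has 2, joined by a line and coloured by cluster, filled where the probe passed the filter. The 2 points of Hoxd9 nearly coincide, those of Hoxa3 lie 2.02 apart and those of Hoxb6 lie 2.17 apart, on opposite sides of 0.

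Partners and regulators of the HOX genes were taken from lists of known factors. Of 8 TALE cofactor genes measured, 5 were called lower and 0 higher in limma, with a median of -1.66, beside 25.4% of all genes called lower and 28.0% higher. Meis1 fell by 2.91 ± 0.58, Meis3 by 2.58 ± 0.24, Pknox2 by 2.55 ± 0.33 and Meis2 by 1.45 ± 0.26, whereas Pbx2 stood at -0.08 ± 0.16 and Pknox1 at 0.06 ± 0.30. At an unadjusted p under 0.05 the counts were also 5 and 0. Meis1, Meis3 and Pknox2 missed the background limit on FLAG IP replicate 1. The 5 cofactors above it on every array had a median of -0.16. After normexp background correction 1 cofactor was called lower, beside 1398 of all 15266 genes.

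Of 6 activators that passed, 2 were called higher and 0 lower in limma (median 0.67), beside the same shares of all genes. Neither call held with the slide as a block, which in effect left out input replicate 1, and 1 was left after normexp background correction. Over all 15266 genes, 1431 were called higher and 1545 lower with that block, and 1272 and 1398 after normexp. Kmt2a, the trithorax methyltransferase gene that keeps HOX genes active, stood at 1.31 ± 0.16, and Rbbp5, a subunit of its complex, at 1.64 ± 0.16. Of 12 repressors and modulators, 5 were called higher and 2 lower (median 0.33). The higher ones were the Polycomb genes Bmi1 (1.43), Suz12 (1.33), Eed (1.26), Rnf2 (1.11) and Cbx2 (0.999), and the lower ones Phc2 (-1.07) and Ring1 (-1.09). None of these 7 calls held after normexp background correction or with the slide as a block, fits that also called fewer of all genes. Of the noncoding transcripts of the clusters, 3 of 11 on the list were matched and only Hoxd3os1 passed, from 0.0671 and 0.0568 before precipitation to 0.0401 and 0.00472 after it, where it was not well above background (-2.17 ± 1.10, not called). Evx2, the homeobox gene next to Hoxd13, stood at -0.16 ± 0.27.

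Genes of the cell types in the gonad moved between the groups too. The counts below stand beside 28.0% of all genes called higher and 25.4% called lower. The summed scaled signal of 7 interstitial mesenchyme markers was 245 to 258 for the input and 39.3 to 59.7 in the FLAG IP, with all 7 called lower. That of 8 Sertoli cell markers was 44.5 to 45.8 against 9.73 to 10.2, with 7 lower and Fgf9 higher, and that of 5 Leydig cell markers 126 to 139 against 19.3 to 20.01. The 10 germ cell markers summed to 89.2 to 94.5 for the input and 162 to 182 in the FLAG IP, with 4 called higher and 1 lower. Of 9 markers of mesonephros and surface epithelium, 3 were called higher and 4 lower, and their sum was 11.6 to 11.8 against 4.34 to 5.49. Of the blood and vessel lists, 2 of 5 endothelial, 4 of 4 erythroid and 2 of 3 macrophage markers were called lower, and 0 were called higher, with the same 0 higher at an unadjusted p under 0.05. For a level in whole-gonad RNA, fewer cells of a type and less RNA per cell cannot be told apart, which concerns the levels and not the step from input to precipitate. The part of these cell types in the HOX values was not tested.

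**Figure D5:**
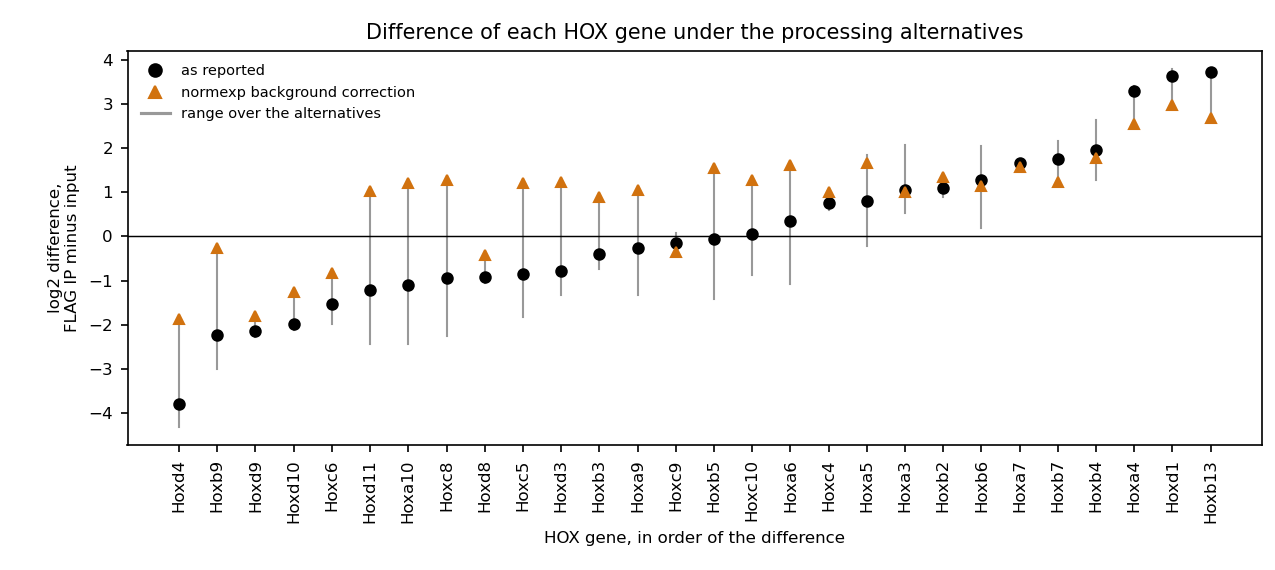
Log2 difference (FLAG IP minus input) of 28 HOX genes as reported (black), after normexp background correction (orange triangles) and as the range over the alternatives run (grey lines). Hoxa4, Hoxb13, Hoxd1 and Hoxd9 kept their call throughout, and 12 genes changed sign under at least 1 alternative, Hoxa10 being the only called one.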

How the data were processed

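Per the labels, RNA was amplified, labelled with Cy3 and hybridised to one-colour Agilent mouse arrays. The submitters' processing notes name Agilent Feature Extraction 9.5. Per the file headers, the deposited scanner files hold processed signal as intensity, with median spot and background signals and marks 0 or 1 per spot. The authors' deposited table gives a ratio of FLAG IP to input and a raw intensity per group. On 47 of 48 HOX probes that intensity lay within 0.1% of the mean of the 2 arrays, so the authors' values are pooled. The sign of the authors' deposited ratio on the log2 scale matched the difference in 28 of 29 HOX genes. No column of single samples was left unused (0).

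Each array's log2 processed signal was centred on its 75th percentile, outlier spots were removed, and the brightest probe that passed the filter stood for a gene. The fit used limma 3.58.1 under R 4.3.3 over 15266 genes, with Benjamini-Hochberg adjustment at 0.05. "Called" means past that threshold. The members and lists were chosen with earlier results of these data known. The rule for full description took, per cluster, up to 3 genes at each end whose groups did not overlap, and the other members are named. Certain members of the HOX set and of the lists are not reported here by name but remain in counts and medians. Gene symbols come from the authors' table, updated by gene ID through RefSeq. "At least" folds set the brighter group against the lowest signal well above background, or the dim probe's own if higher. The labels number the arrays 1 and 2 in both groups, with a correlation of 0.05 between the deviations of same-numbered arrays, so they were not treated as paired. The normexp alternative used the median spot and background signals.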

Additional observations from a re-analysis of the deposited data

How the results depend on the processing

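The median log2 difference of the HOX genes was -0.06 as reported and 1.21 after normexp background correction (all genes 0.38). It was -0.59 after quantile normalization (all genes 0.01) and 0.79 with no filter on dim probes (all genes 0.55, 38 HOX genes). When a gene had to pass on each of the 4 arrays it was 1.08 (all genes 0.19). With an array left out it ran from -0.21 to 0.60. As reported, 9 HOX genes were called higher and 7 lower. Normexp gave 5 and 1, the slide as a block 4 and 4, and leaving out an array 4 to 15 higher and 4 to 14 lower. Under that stricter filter 15 HOX genes were tested and 4 were called lower. With the replicate block, 10 were called higher and 7 lower. Median centring (8 and 7), the mean of a gene's probes (10 and 7) and every probe on its own (9 and 9) moved the counts by less than 1.5 times. Hoxa10, called lower as reported, stood at 1.21 after normexp. Of the 16 called genes, 15 kept their direction under all alternatives, 9 lost their call under normexp without changing direction, and 8 with the slide as a block. The normexp offset of 50 is close to the 75th percentile of FLAG IP replicate 1, at 55.7 units. Where an array was left out, the filter of all 4 arrays was kept and the lone array of a group was assumed to vary like the other group.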
